A study of Arabidopsis lyrata with 12 samples.

Results

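Where monomethylated lysine 27 of histone H3 (H3K27me1) and DNA methylation (5-methylcytosine, 5mC) begin and end beside each other was compared in young leaves of Arabidopsis lyrata. The members were the samples of these 2 marks, 4 of the 12 in the series, chosen by their labels and not by a measured value. They entered as the list of enriched domains that the authors deposited for each mark. After leaving out the smaller scaffolds and a stretch of scaffold 3 (24306901 to 24443100), 16321 of 17702 H3K27me1 domains and 31318 of 33531 5mC domains remained. The single H3K27me1 domain of that stretch had a score of 4.25 per base pair, against a median of 0.211 over the domains kept. All plants were accession MN47, grown in soil with 16 h of light and 8 h of dark at 22.5 °C. No treatment or genotype was compared. Immunoprecipitation was with an antibody to H3K27me1 on chromatin (2 libraries) and an antibody to 5mC on DNA (2 libraries), and 20 ng of DNA went into each library. A whole-leaf sample mixes cell types, so a shared position does not show that both marks sat in the same cell.

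Both marks are textbook features of silent plant chromatin. In Arabidopsis thaliana, H3K27me1 is placed by the ATXR5 and ATXR6 methyltransferases, whose loss lets heterochromatin replicate in excess. Cytosine methylation over transposons is kept by MET1, the chromomethylases and the RNA-directed pathway with DRM2, while many transcribed genes carry CG methylation alone in their bodies. The overlap and the offset of the domains therefore describe how far a histone mark and a DNA mark of the same compartment lie on the same base pairs in the relative A. lyrata.

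A single list per mark was deposited for its 2 libraries, so no replicate error and no test can be attached to any value. The spread over the 8 main scaffolds is given in its place, and scaffolds are parts of the same genome in the same libraries, not replicates. Sequencing depth is unknown for every library. Intervals in brackets are exact binomial (Clopper-Pearson) 95% intervals of counting error, and neighbouring domains are not independent. Edges of H3K27me1 domains fell on a grid of 300 bp and those of 5mC on a grid of 150 bp, and the smallest gap between neighbouring domains was 300 bp in both lists. An edge offset of 150 bp is thus below what the H3K27me1 list can resolve.

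Most H3K27me1 lay on methylated DNA, whereas much of the 5mC length had no H3K27me1. The H3K27me1 domains covered 30.3 Mb (15.6% of the extent of the main scaffolds) and the 5mC domains 40.6 Mb (20.9%). They met over 25.1 Mb, which was 82.9% of the H3K27me1 length and 61.9% of the 5mC length. The H3K27me1 share stood between 81.2% (scaffold 8) and 83.7% (scaffold 1), and the 5mC share between 57.4% (scaffold 8) and 63.7% (scaffold 1). On each of the 8 scaffolds the H3K27me1 share was the larger, and 5mC was 1.31 to 1.41 times as long as H3K27me1. The shared length is the same in both, so the longer list has the smaller share by arithmetic. On the other scaffolds, outside the main set, only 48.5% of 4.43 Mb of H3K27me1 was under 5mC, and 56.7% of 3.79 Mb of 5mC under H3K27me1.

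**Figure D1:**
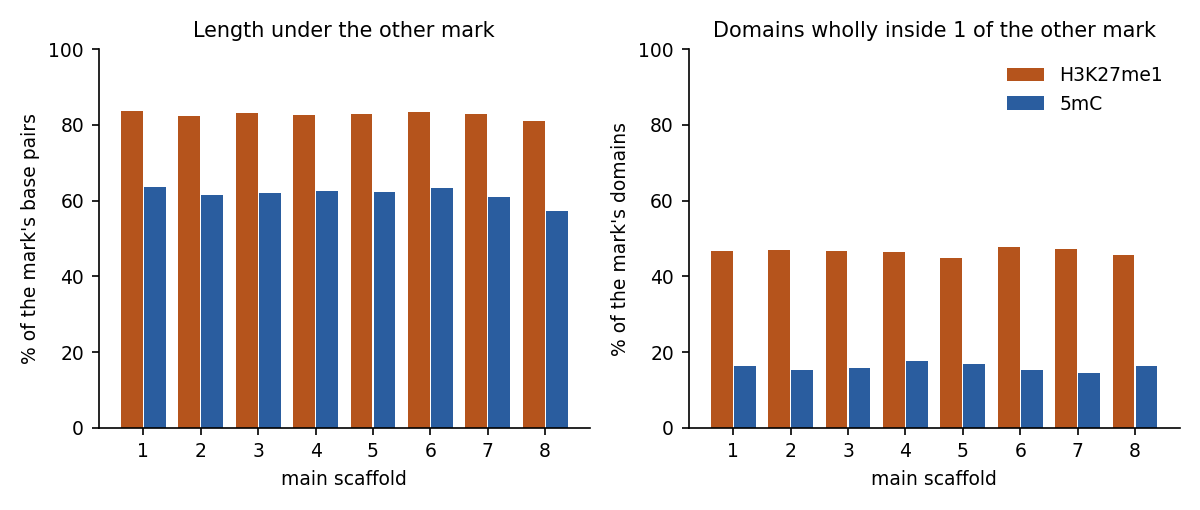
Left, the percentage of the base pairs of each mark that lay under the other, for main scaffolds 1 to 8; right, the percentage of the domains of each mark that lay wholly inside 1 domain of the other. H3K27me1 bars stand at 81.2 to 83.7% on the left and 44.9 to 47.9% on the right, above the 5mC bars (57.4 to 63.7% and 14.6 to 17.6%) on every scaffold.

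H3K27me1 domains were more often nested in 5mC than the reverse. Of H3K27me1 domains, 7606 (46.6%, interval 45.8 to 47.4%) lay wholly inside a single 5mC domain, and of 5mC domains 5005 (16.0%, interval 15.6 to 16.4%) inside a single H3K27me1 domain. Both counts include the 370 pairs with the same start and end. Nested H3K27me1 domains had a median width of 1200 bp and the 5mC domains around them 3450 bp, and the median of the ratio within each such pair was 2.40. For 5mC domains nested in H3K27me1 the medians were 750 and 2400 bp, and the median ratio was 2.67. The scaffold ranges, 44.9 to 47.9% and 14.6 to 17.6%, did not meet. When 5mC domains were joined across gaps of up to 600 bp the 5mC value fell to 6.93%, and when both lists were joined it was 9.38%. With 5mC edges drawn in to the 300-bp grid, a setting added after the data were seen, it was 26.4%.

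How often a domain met the other mark depended on its width, and far more so for 5mC. In the narrowest class, up to 300 bp, 12.6% of 10155 5mC domains touched H3K27me1 (interval 12.0 to 13.3%), against 75.5% of 1007 H3K27me1 domains that touched 5mC (interval 72.7 to 78.1%). Between 601 and 1200 bp the shares were 52.1% and 84.9%, and between 1201 and 2400 bp 81.7% and 92.9%. Above 4800 bp 1575 of 1576 5mC domains and 1048 of 1049 H3K27me1 domains touched the other mark. Width by itself raises the chance of meeting another domain, and these shares are not corrected for it. In all, 88.0% of H3K27me1 domains and 44.6% of 5mC domains touched the other mark by at least 1 bp.

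Nesting ran differently with width. The share of H3K27me1 domains inside a 5mC domain fell from 63.9% at up to 300 bp over 46.4% at 601 to 1200 bp to 29.9% above 4800 bp. For 5mC it was 10.8% at up to 300 bp, highest at 1201 to 2400 bp (20.9%, interval 19.7 to 22.2%) and 12.3% above 4800 bp. The length of H3K27me1 under 5mC rose over the same classes, from 69.7% to 71.2% and 90.8%, and that of 5mC under H3K27me1 from 12.2% over 41.4% to 80.9%. The narrow 5mC domains were thus mostly outside H3K27me1, while wide domains of either mark were mostly covered without lying wholly inside a partner.

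Few domains met many of the other mark. Of H3K27me1 domains, 72.0% touched a single 5mC domain, 12.4% touched 2 and 3.65% at least 3. Of 5mC domains, 36.1% touched a single H3K27me1 domain, 6.04% touched 2 and 2.47% at least 3. The 5mC domain that held the most H3K27me1 domains was the 51000-bp domain on scaffold 3 (18165301 to 18216300), with 11 wholly inside and 83.5% of its length covered. The next lay on scaffold 2 (3277801 to 3300600), with 10 inside 22800 bp, and on scaffold 4 (11192851 to 11214750), with 10 inside 21900 bp and 54.8% covered. The H3K27me1 domain that held the most 5mC domains was on scaffold 6 (17269801 to 17308800), 39000 bp wide with 9 inside and 88.8% covered. Those on scaffold 1 (29962501 to 29993400) and scaffold 4 (7049101 to 7076700) held 8 each over 30900 and 27600 bp. None of these 6 domains touched a listed gene, a listed gene being any of the 24268 genes of the deposited mRNA table. That is no particular trait of the 6, since few domains that met the other mark did so. Of all H3K27me1 domains that touched 5mC, 9.74% touched a listed gene, and of all 5mC domains that touched H3K27me1, 11.5%.

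Domains of both marks that overlap were joined into islands, of which there were 10430, with a median span of 2250 bp (quartiles 1200 and 4500 bp). In 6507 of them (62.4%) there was 1 domain of each mark. A single H3K27me1 domain met several 5mC domains in 1475, several H3K27me1 domains met a single 5mC domain in 1515, and 933 held several of each. The last group had a median span of 6750 bp. The longest island, 69600 bp on scaffold 1 (30417601 to 30487200), joined 4 H3K27me1 and 16 5mC domains, which covered 68700 and 62550 bp of it. The next, of 52500 and 51750 bp, were on scaffold 1 as well (18306001 to 18358500, and 30110251 to 30162000). They held 3 and 8 H3K27me1 domains with 8 and 13 5mC domains.

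In the islands with 1 domain of each mark, the edges of both marks mostly lay close together. Of 13014 edges, 23.3% stood at the same base pair, 56.9% within 150 bp and 74.0% within 300 bp of each other, and the median absolute offset was 150 bp. The 5mC edge was further out at 46.8% of edges (44.3 to 49.1% over scaffolds) and the H3K27me1 edge at 29.9% (27.3 to 31.9%), and 5mC led on 8 of 8 scaffolds. Where 5mC was further out, it was so by a median of 300 bp (upper quartile 600 bp), and where H3K27me1 was, by 150 bp (upper quartile 450 bp). The median offset over all edges was 0 bp, and the mean was 112 bp toward 5mC.

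The lead of 5mC at these edges depended on the window grid of the lists. Its size, the percentage of edges with 5mC further out minus that with H3K27me1 further out, was 16.9 points. With the 5mC edges drawn in to the 300-bp grid the lead was 0.56 points (29.4% against 28.9%), and with them widened to that grid it was 31.0 points. Joining 5mC across gaps of up to 600 bp gave 26.2 points, and joining both lists 33.3 points. Long overhangs kept their order in both settings of the grid. 5mC was out by more than 600 bp at 8.67% of edges and H3K27me1 at 2.62%, and the values were 6.31% and 2.98% with 5mC edges drawn in and 10.5% and 1.63% with them widened. With depths unknown, a longer reach of 5mC and a more sensitive 5mC list cannot be told apart.

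**Figure D2:**
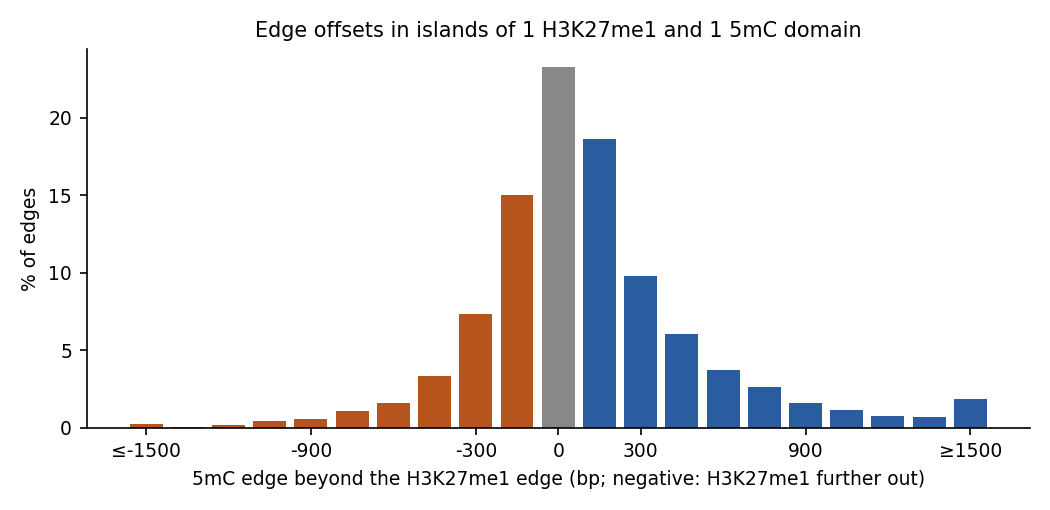
Offsets of the 5mC edge from the H3K27me1 edge at the 13014 edges of the islands with 1 domain of each mark, in steps of 150 bp, as a percentage of edges; blue bars have 5mC further out, brown bars H3K27me1, and the end bars pool offsets of 1500 bp or more. The bar at 0 holds 23.3% of edges, and the blue side has the longer tail, with 1.85% in its end bar against 0.27% in the brown one.

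How these pairs lay to each other differed. 5mC held the H3K27me1 domain within it in 2904 of the 6507 pairs (44.6%) and H3K27me1 the 5mC domain in 1580 (24.3%). In 1653 (25.4%) the domains were staggered, each reaching further at a different end, and in 370 (5.69%) they were equal. Widths within pairs went together (Spearman 0.696 over 6507 pairs, which share a position and must overlap). Grouped by the mean of both widths, the lead of 5mC was -15.1 points at 301 to 600 bp, 15.7 points at 601 to 1200 bp and 28.3 points at 1201 to 2400 bp. At 2401 to 4800 bp the lead was 32.4 points, and above 4800 bp 32.1 points. The direction in narrow pairs depended on whose width grouped them. At up to 300 bp and 301 to 600 bp the lead was 49.1 and 23.4 points by H3K27me1 width, and -58.6 and -20.9 points by 5mC width. No H3K27me1 domain is narrower than 300 bp, so a 5mC domain of up to 300 bp can never be the wider of its pair. The signs in the narrow classes are thus set in part by the grouping and by this least width.

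In islands of any make-up 5mC was the outermost mark at 48.5% of 20860 outer edges and H3K27me1 at 29.0%, again on 8 of 8 scaffolds. The lead of 19.6 points shrank to 2.42 points with 5mC edges drawn in. Together the outer overhangs of 5mC came to 4.80 Mb and those of H3K27me1 to 1.93 Mb (3.80 and 2.62 Mb with 5mC edges drawn in). The longest 5mC overhang in a pair measured 4800 bp, on scaffold 2 (4480501 to 4486200), where a 5700-bp 5mC domain met a 600-bp H3K27me1 domain. The next were 4050 bp each, on scaffold 2 (7813951 to 7821900) and scaffold 8 (12568051 to 12573150). The longest H3K27me1 overhang, 3750 bp on scaffold 4 (10447801 to 10452600), was of a 4800-bp domain over 750 bp of 5mC. The next, of 3600 and 3450 bp, were on scaffold 5 (1138501 to 1154700) and scaffold 8 (7617301 to 7623300).

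The nearest like edge (start to start, end to end) needs no choice of partner. It was sought for all domains that touched the other mark, also those in islands of several domains. Distances were longer than in the pairs. Within a pair the nearest edge is never further than the partner's edge, so the longer values come with the wider set. Of the 28740 edges of H3K27me1 domains that touched 5mC, 40.4% had a 5mC edge within 150 bp and 52.8% within 300 bp, and the median distance was 300 bp (quartiles 150 and 1050 bp). The 27958 edges of 5mC domains that touched H3K27me1 gave 41.3% and 54.0%, with the same median and an upper quartile of 900 bp. The share within 150 bp was 49.3% in H3K27me1 domains of up to 300 bp, 36.9% at 1201 to 2400 bp and 43.2% above 4800 bp, with no steady trend over width. With 5mC joined across gaps of up to 600 bp, 32.5% of H3K27me1 edges were within 300 bp of a 5mC edge.

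For scale, the same measures were taken on H3K27me3, the Polycomb mark, whose list has the same 300-bp grid. Of 25.6 Mb of H3K27me3, 22.7% lay under 5mC, which covered 20.9% of the extent of the main scaffolds. In the 5340 islands with 1 domain of each of these marks, 43.8% of edges stood within 150 bp and 56.5% within 300 bp, against 56.9% and 74.0% for H3K27me1 with 5mC. The 5mC overhang had a median of 450 bp and an upper quartile of 1350 bp there, and the H3K27me3 overhang 450 and 1050 bp. 5mC was further out at 44.5% of these edges and H3K27me3 at 36.8%. The difference between these pairs of marks was not tested.

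Over the edges of all domains, 5mC declined slowly around H3K27me1, and H3K27me1 was lower and declined fast around 5mC. These edges include those of the 55.4% of 5mC domains and 12.0% of H3K27me1 domains that touched none of the other mark. The values at 5mC edges are thus not the profile of shared domains alone. In windows of 150 bp just inside an H3K27me1 edge 69.5% were under 5mC, and 57.1% just outside. At 451 to 600 bp outside it was 28.3%, at 1351 to 1500 bp 13.9% and at 5851 to 6000 bp 5.94%. H3K27me1 covered 29.8% of windows just inside a 5mC edge and 22.0% just outside, 4.13% at 451 to 600 bp outside, and 1.40 to 1.58% in the windows at 1951 to 2100 bp and 5851 to 6000 bp. Deep inside, at 1951 to 2100 bp from an edge, which only wide domains reach, 91.1% of H3K27me1 windows had 5mC and 86.2% of 5mC windows had H3K27me1. The share of base pairs in listed genes rose outward from both, from 12.4 to 30.7% around H3K27me1 and from 12.0 to 42.3% around 5mC between the first window and 1351 to 1500 bp outside.

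**Figure D3:**
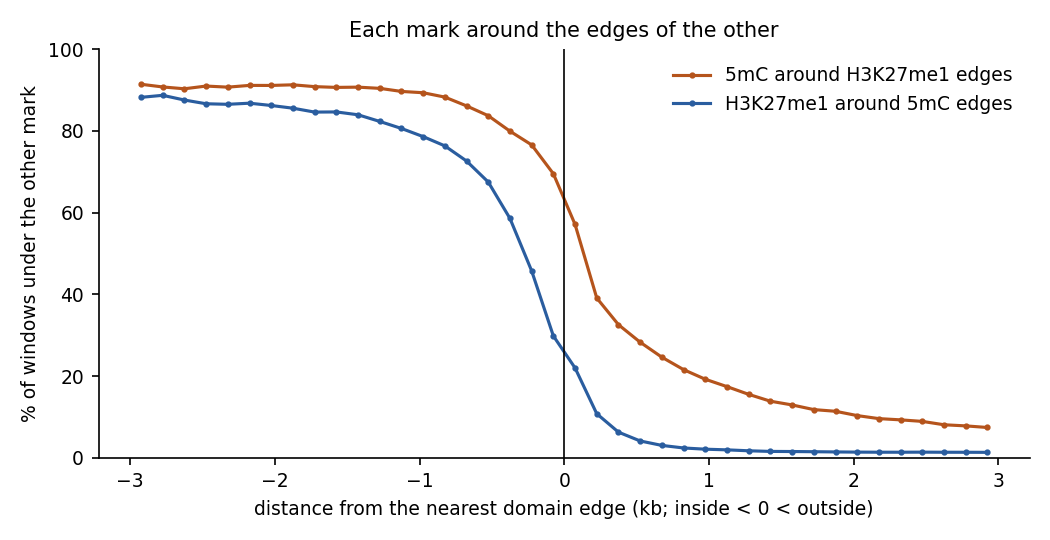
Percentage of 150-bp windows under the other mark against the distance to the nearest domain edge, in kb, with the inside of domains left of 0 and the outside right of 0; brown, 5mC around H3K27me1 edges, and blue, H3K27me1 around 5mC edges. The brown line passes the edge between 69.5 and 57.1% and is still at 13.9% 1.5 kb out, while the blue line passes it between 29.8 and 22.0% and is at 1.57% there. Edges of all domains are counted, also of those that touch none of the other mark.

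Breaks in H3K27me1 were more often bridged by 5mC than breaks in 5mC by H3K27me1. Of the 4357 gaps of 300 bp between neighbouring H3K27me1 domains, the shortest that the list holds, 68.2% (interval 66.8 to 69.6%) lay wholly inside a 5mC domain. Of the 6131 gaps of 300 bp in 5mC, 41.9% (interval 40.6 to 43.1%) lay inside an H3K27me1 domain. At 600 bp the shares were 36.9% and 15.4%, at 1200 bp 24.6% and 3.94%, and at 2100 bp 9.06% and 0.948%. Of the 282 5mC gaps of 3000 bp, 0 were bridged, which leaves a share of up to 1.30% by the interval. These shares are of all gaps, also those that held none of the other mark, and so depend on where the gaps lay. 5mC gaps without any H3K27me1 made up 49.2% at 300 bp and 81.9% at 3000 bp, while of H3K27me1 gaps 22.1 and 16.2% had no 5mC.

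**Figure D4:**
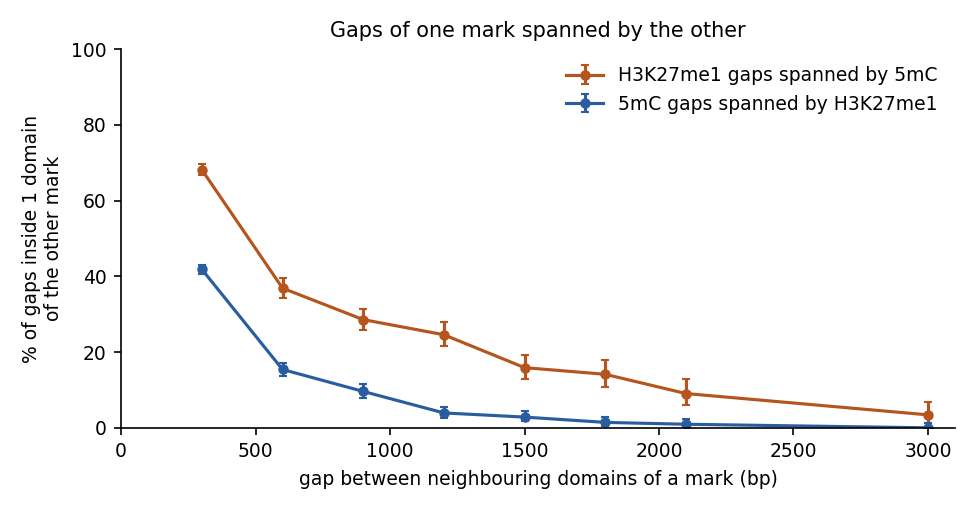
Percentage of gaps between neighbouring domains of a mark that lie inside a single domain of the other mark, against the width of the gap in bp; brown, H3K27me1 gaps inside 5mC, and blue, 5mC gaps inside H3K27me1, with exact 95% intervals as bars. Brown falls from 68.2% at 300 bp to 3.43% at 3000 bp, and blue from 41.9% to 0% below it throughout.

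The 15.5 Mb of 5mC without H3K27me1 was mostly made of separate domains. Domains that touched no H3K27me1 held 55.7% of it (8.61 Mb in 17339 domains), outer overhangs 31.0% and stretches between H3K27me1 domains of an island 13.3%. The 5.19 Mb of H3K27me1 without 5mC split more evenly, with 33.5% in domains that touched no 5mC (1.74 Mb in 1951 domains), 37.2% in outer overhangs and 29.3% in between. H3K27me1 domains that touched no 5mC lay a median of 2100 bp from the nearest 5mC domain (quartiles 600 and 5700 bp), and 129 of them (6.61%) abutted on it. 5mC domains that touched no H3K27me1 lay a median of 4050 bp away (quartiles 1350 and 10200 bp), 352 of them (2.03%) abutted, and 25.4% were more than 10 kb off.

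These kinds of territory differed in what else they held. Over all windows of the main scaffolds 32.6% of base pairs were in listed genes, and over shared base pairs 7.21%. In H3K27me1 domains without any 5mC it was 56.2%, and in 5mC domains without any H3K27me1 13.3%. In overhangs it was 7.66% for 5mC and 8.99% for H3K27me1. 5mC between H3K27me1 domains had the lowest value, 5.18%, and 72.4% of its windows were more than 5 kb from a listed gene, against 59.0% of shared windows and 28.3% of those in separate 5mC domains. Of the windows in separate 5mC domains 20.3% were outside but within 1 kb of a listed gene, against 3.59% of shared windows and 12.2% over all windows. Overhangs lay nearer to genes than shared territory by this measure, with 10.4% of 5mC and 6.92% of H3K27me1 overhang windows within 1 kb, and 50.2% and 52.0% more than 5 kb away. H3K27me3 lay on 17.5% of separate 5mC windows, 14.6% of shared windows and 5.40% of separate H3K27me1 windows, beside 13.2% over all windows. H3K4me3, a mark of transcribed gene starts, lay on 5.45% of separate H3K27me1 windows, 2.00% of separate 5mC windows and 0.699% of shared windows, beside 9.03% over all. All windows here include a stretch of 1.65 to 2.85 Mb in each main scaffold that holds no domain and no listed gene. That lowers each value given over all windows, so the 14.6% of shared windows under H3K27me3 is no clear excess over 13.2%.

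Separate H3K27me1 domains touched listed genes more often than H3K27me1 domains that touched 5mC in each width class up to 2400 bp. Of separate domains at 601 to 1200 bp, 460 of 775 (59.4%, 48.2 to 68.4% over scaffolds) touched a listed gene. For the 4346 domains of that class that touched 5mC it was 10.3% (7.84 to 11.9%). At 1201 to 2400 bp the shares were 71.9% and 9.46%, at 301 to 600 bp 46.2% and 9.09%, and at up to 300 bp 30.0% and 8.55%. By length, 29.6% of the separate domains of up to 300 bp lay in listed genes, which was below the 32.6% over all windows. Over all widths 906 of 1951 (46.4%) lay wholly inside listed genes. For 5mC the difference was smaller, with 18.9% of separate and 11.9% of shared domains of 601 to 1200 bp touching a listed gene. Genes missing from the mRNA table count as outside genes here.

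In the lists as deposited, 5mC was the outer mark most often beside genes. The dependence of the lead on the window grid and on pair width, given above, applies here too. At the 1491 pair edges with a listed gene within 1 kb outward, 5mC was further out at 57.7% and H3K27me1 at 21.9%, a lead of 35.9 points. The lead was 19.8 points with the gene 1 to 5 kb outward (3382 edges), 11.3 points beyond 5 kb (6897 edges) and 17.1 points at the 1244 edges inside a listed gene. The median overhang of 5mC was 300 bp in each of these groups, and the difference between them was not tested.

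The files hold neither domains nor listed genes in 1 long stretch of each main scaffold (1.65 to 2.85 Mb), and the relation of the marks changed with distance from it. Within 1 Mb of it 72.6% of the 5mC length was under H3K27me1 in the median over scaffolds (65.3 to 77.0%), against 55.0% at least 5 Mb away (50.2 to 62.2%), and the near value was higher on 8 of 8 scaffolds. Of 5mC domains, 28.3% near (23.9 to 32.9%) and 11.3% far (8.59 to 15.1%) lay inside an H3K27me1 domain, with ranges that did not meet. H3K27me1 under 5mC moved less, at 84.2% near and 80.1% far, and was higher near on 8 of 8. The share of H3K27me1 domains inside 5mC, 44.4% at both distances, was higher near on 4 of 8. In the lists as deposited, the lead of 5mC at the outer edges of islands was 7.75 points near (2.88 to 16.1) and 23.6 points far (20.4 to 31.8). It was lower near on all 8 scaffolds. 5mC domains were also wider near it (median 900 against 450 bp). Both marks were dense there, with medians over scaffolds of 0.806 Mb of H3K27me1 and 0.968 Mb of 5mC within 1 Mb of it. This zone takes in both sides of the stretch, so these lengths are not shares of 1 Mb. The covered share of the near and far zones is not given here. Over the whole main scaffolds, the empty stretch included, H3K27me1 and 5mC covered 15.6 and 20.9% of the extent. A denser mark covers more of the other, and the near and far values are not corrected for it. Within the class of 601 to 1200 bp, 68.3% of 5mC domains near and 44.6% far touched H3K27me1, higher near on 8 of 8.

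The score per base pair of H3K27me1 was slightly higher in domains that touched 5mC. The score is the authors' own value per domain. What it counts is not stated, and it was compared only within a list. In the class of 1201 to 2400 bp its median was 0.210 per bp (quartiles 0.191 and 0.234) in 3288 shared and 0.185 (quartiles 0.175 and 0.199) in 253 unshared domains, a ratio of 1.14. By scaffold the shared medians ran from 0.206 to 0.214 and the unshared from 0.182 to 0.187, so that they did not meet. The ratio was 1.00 at up to 300 bp, 1.03 at 301 to 600 bp, 1.08 at 601 to 1200 bp and 1.13 at 2401 to 4800 bp, where 21 domains were unshared. Quartile ranges overlapped in each of these classes. The share of the domain under 5mC added little, with medians at 1201 to 2400 bp of 0.207 for domains covered to under 50%, 0.212 for 50% to under 100% and 0.208 for whole cover.

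For 5mC the direction of this difference depended on the setting. At 1201 to 2400 bp the median was 1.17 per bp (quartiles 0.947 and 1.47) in 3458 shared and 1.18 (quartiles 0.953 and 1.53) in 775 unshared domains, a ratio of 0.993. The ratio was 1.14 with 5mC domains or both lists joined across gaps of up to 600 bp and 1.05 with 5mC edges widened to the 300-bp grid, and with both lists joined it was above the H3K27me1 ratio of 1.10. Joining adds up the scores and counts the bridged gaps as width, and widening adds width alone. The score per base pair in these settings is thus not the same measure as in the lists as deposited. In those lists the shared median was the higher on 4 of 8 scaffolds. In narrower domains the shared median was the lower, with ratios of 0.947 at up to 300 bp, 0.921 at 301 to 600 bp and 0.942 at 601 to 1200 bp, and it was 1.02 times the other at 2401 to 4800 bp. Quartile ranges overlapped in each of these classes. 5mC domains of 1201 to 2400 bp wholly inside H3K27me1 had a median of 1.10, against 1.20 for those covered to 50% or more but not wholly, while at 2401 to 4800 bp the order was the other way, with 1.25 against 1.21. Within pairs, the score per base pair of H3K27me1 and that of 5mC were weakly related (Spearman 0.191 over 6507 pairs, which share position and thus any copy number or mappability of the DNA). It was 0.0776 for pairs with H3K27me1 of 301 to 600 bp and 0.309 at 2401 to 4800 bp.

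**Figure D5:**
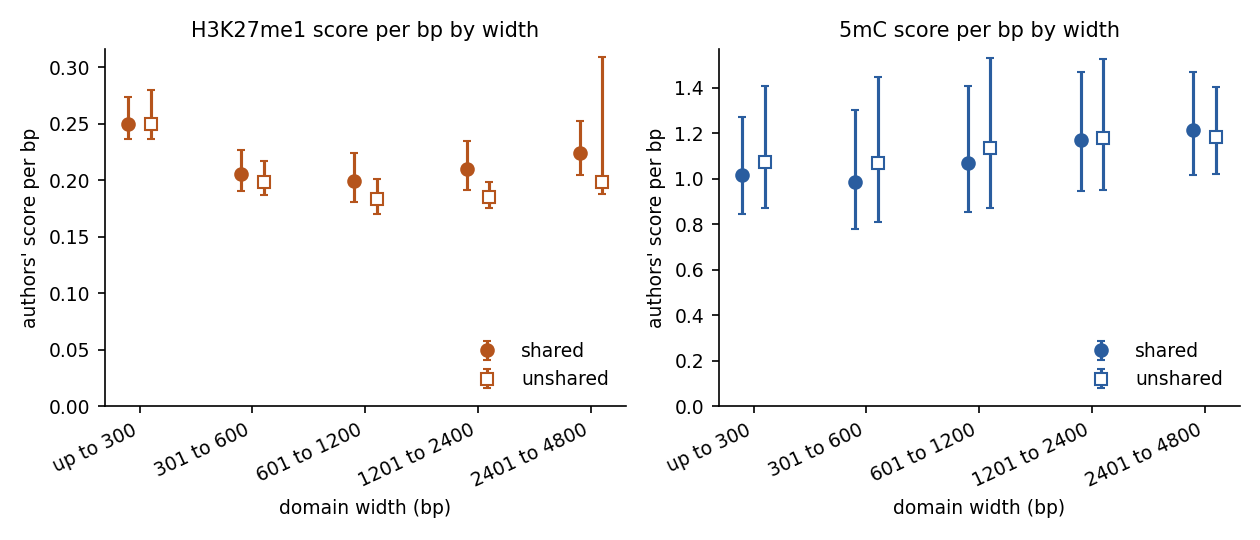
Median authors' score per bp (points) with quartiles (bars) by domain width, for H3K27me1 (left) and 5mC (right); filled circles are domains that touch the other mark and open squares those that do not. H3K27me1 circles stand above the squares from 301 bp up, by at most 1.14 times, while 5mC circles stand at 0.921 to 1.02 times the squares; domains over 4800 bp are not drawn, since 1 of each mark was unshared.

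The widest H3K27me1 domains without 5mC had high scores per base pair. They measured 5100 bp on scaffold 2 (8599201 to 8604300), 4800 bp on scaffold 3 (17337601 to 17342400) and 3900 bp on scaffold 7 (20071501 to 20075400). Their scores were 2.22, 0.993 and 1.17 per bp, against a list median of 0.211. None touched a listed gene, against 52.7% of all H3K27me1 domains without 5mC that did. The nearest 5mC domain was 14250, 19050 and 900 bp away. Domains above 5 times the list median were rare in both sets, 8 of 1951 unshared (0.41%) and 64 of 14370 shared (0.445%). The widest 5mC domains without H3K27me1, on scaffold 5 (670651 to 675600, 4950 bp), scaffold 1 (9562201 to 9566550, 4350 bp) and scaffold 8 (5576701 to 5581050, 4350 bp), had ordinary scores of 0.935, 1.27 and 1.18 per bp, against a list median of 1.11. They lay 1800, 2100 and 16350 bp from H3K27me1, and the last touched 1 listed gene. Among all 5mC domains without H3K27me1, 16.7% touched a listed gene.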

How the data were processed

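Chromatin (H3K27me1) and methylated-DNA (5mC) immunoprecipitations were sequenced on an Illumina Genome Analyzer IIx, per the labels' protocols. The submitters' processing notes list Bowtie and SICER, without versions. Genome build, window, gap and pooling of the 2 libraries: not given in the sources used here. The authors deposited a whole-number score per domain, whose meaning is not stated and which rose with width (Spearman 0.972 for H3K27me1, 0.939 for 5mC). They also deposited a mean exon coverage signal per gene, of which the gene positions alone were used. Depth is unknown.

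Coordinates are as deposited, counted from 1. Every domain touching the left-out stretch (1 H3K27me1 and 8 5mC) was dropped. Scaffold extents are the highest coordinate in any file. Overlaps, islands, edge offsets and 150-bp windows were computed in Python 3.11.15 with pandas 2.3.3, numpy 2.4.6 and scipy 1.17.1, and checked on simulated lists with known answers. Score per base pair is score divided by width. No test across samples was possible. Named domains were the 3 longest islands, the 3 widest unshared domains, the 3 holding most domains and the 3 longest overhangs of each mark, with ties taken by position. Genes are counted, not named. The members, lists and rules were chosen with earlier results of these data known. The distance from empty stretches, genes beside edges and genes by width were added after the data were seen. 8 alternatives were planned and 2 added.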

Additional observations from a re-analysis of the deposited data

How the results depend on the processing

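No paired analysis was possible because the authors deposited 1 domain list per mark and no value per replicate. With no replicates, a value is called moved when it shifted by more than its SD over the 8 scaffolds. The added settings were domains of exactly 1500 bp and 5mC edges drawn in to the 300-bp grid, which drops 7270 5mC domains. Counting only domains covered to at least 50% as shared leaves lengths, nesting and islands unchanged by construction. Of 104 values, 38 did not move. The 38 include every value with the left-out stretch kept in, which adds only 1 H3K27me1 and 8 5mC domains. Some others were fixed by construction. Widening 5mC to the 300-bp grid leaves the H3K27me1 domains touching 5mC (88.0%) and the H3K27me1 score ratio (1.14) unchanged. Drawing 5mC in to that grid leaves the H3K27me1 domains inside 5mC (46.6%) unchanged. The count is thus not a measure of robustness. No value changed direction except the 5mC score ratio, which was near 1. The cause of the shifts was not tested.

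The share of H3K27me1 length under 5mC was 83.9% for the top 50% of domains by score, 88.1% with 5mC joined across 600-bp gaps, 87.8% with both joined, 86.7% with 5mC widened to the 300-bp grid, 81.9% without 5mC domains of 300 bp or less, 78.5% on all scaffolds and 79.0% with 5mC drawn in. That of 5mC under H3K27me1 was 58.0% for the top 50%, 59.5% with 5mC joined, 58.0% widened, 65.0% without narrow 5mC and 66.8% drawn in. H3K27me1 domains touching 5mC were 92.1% for the top 50%, 83.3% at 50% cover, 85.8% with both joined, 84.6% without narrow 5mC, 85.5% on all scaffolds and 84.6% drawn in. 5mC domains touching H3K27me1 were 50.8% for the top 50%, 39.6% at 50% cover, 39.8% with 5mC joined, 39.9% with both joined, 60.0% without narrow 5mC and 53.4% drawn in. H3K27me1 domains inside 5mC were 43.3% for the top 50%, 64.8% with 5mC joined, 53.2% with both joined, 62.5% widened and 44.6% on all scaffolds. 5mC domains inside H3K27me1 were 6.93% with 5mC joined, 9.38% with both joined, 13.8% widened, 18.5% without narrow 5mC, 17.0% on all scaffolds and 26.4% drawn in.

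The lead of 5mC at pair edges was 26.2 points with 5mC joined, 33.3 with both joined, 31.0 widened, 20.8 without narrow 5mC and 0.56 drawn in. At island edges it was 22.8 for the top 50%, 29.3 with 5mC joined, 33.9 with both joined, 33.1 widened, 22.3 without narrow 5mC and 2.42 drawn in. H3K27me1 edges within 300 bp of a like edge were 47.3% for the top 50%, 32.5% with 5mC joined, 46.8% with both joined, 50.7% widened, 50.1% without narrow 5mC and 56.7% drawn in. For 5mC edges the values were 44.6% for the top 50%, 57.4% at 50% cover, 57.6% with 5mC joined, 52.1% with both joined, 59.5% widened, 52.0% on all scaffolds and 60.6% drawn in. The H3K27me1 score ratio at 1201 to 2400 bp was 1.11 for the top 50%, 1.10 at 50% cover, 1.10 with both joined and 1.09 on all scaffolds. The 5mC ratio was 1.14 with 5mC or both joined and 1.05 widened. Joined or widened domains count the added base pairs as width without score. Depth, unknown here, limits every comparison of lengths between the marks.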
